A study of Mus musculus with 16 samples.

Results

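Erythroid transcription factors were followed here through cells of chimeric mouse embryos. The 10 genes Gata1, Gata2, Klf1, Tal1, Lmo2, Nfe2, Zfpm1, Gfi1b, Myb and Runx1 were taken by symbol from the 29453 genes of the deposited matrix. All 10 were found, and their molecules (unique molecular identifiers, UMIs) were summed per library, stage and cell type. Totals over all cells used ranged from 5706 UMIs for Gfi1b to 57897 for Zfpm1.

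As background, the first red cells of the mouse embryo are primitive erythroid cells that arise in the yolk sac from mesoderm, pass through blood progenitors and enter the circulation while still nucleated. A later wave of erythro-myeloid progenitors (EMP) gives definitive red cells, megakaryocytes and myeloid cells. Several of the factors act in one protein complex with LDB1. TAL1 and GATA1 bind DNA, and LMO2, a LIM-domain protein with no DNA contact of its own, bridges them. GATA2 occupies many GATA sites in progenitors and gives way to GATA1 as cells mature, a change known as the GATA switch. ZFPM1, also named FOG1, is the cofactor of GATA1, KLF1 binds CACCC boxes of globin and other erythroid genes, NFE2 pairs with small MAF proteins, and GFI1B is a repressor. RUNX1 is needed for blood to emerge from endothelium, and MYB for definitive rather than primitive red cells.

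The chimeras were made by injecting tdTomato-marked embryonic stem cells that lack Stat3, on a CD1 background, into wild-type (WT) CD1 blastocysts. Embryos of 3 stages (E7.5, E8.5, E9.5) were dissociated and sorted into tdTomato-positive cells (null) and tdTomato-negative host cells (WT), which were sequenced separately by 10x 3′ single-cell RNA-seq. Each genotype had 2 libraries at E7.5, another 2 at E8.5 and 4 at E9.5. Each E7.5 and E8.5 library pooled several embryos, whereas each E9.5 library came from a single one, and the methods count fewer E9.5 embryos than libraries, so by that count some of these share an embryo, and n at E9.5 is a number of libraries and not of independent embryos. P-values at E9.5 may then be too small. The host cells carry neither the deletion nor the transgene and share an embryo with the null cells, so null cells were compared with the WT cells among which they grew. All null cells also descend from cultured and transfected stem cells, and the series holds no chimeras of WT stem cells. In a difference between null and WT, the deletion and this origin cannot be told apart. Libraries are named A to D within a stage and genotype, and the same letter does not mean the same embryos. Nothing tied a library to its embryos, so p-values measure the spread between libraries, part of which may be technical.

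The 5′ ends of Gata1 and Klf1 are shown because GATA1 and KLF1 are the activators that mark the erythroid state. Capitals mark CACCC, the box read by KLF1 (written GGGTG where it lies on the other strand). The windows run from 250 bases before to 50 bases after the annotated start (RefSeq, GRCm38.p6), Gata1 at chrX:7967861-7968160 on the minus strand and Klf1 at chr8:84901732-84902031 on the plus strand.
Gata1: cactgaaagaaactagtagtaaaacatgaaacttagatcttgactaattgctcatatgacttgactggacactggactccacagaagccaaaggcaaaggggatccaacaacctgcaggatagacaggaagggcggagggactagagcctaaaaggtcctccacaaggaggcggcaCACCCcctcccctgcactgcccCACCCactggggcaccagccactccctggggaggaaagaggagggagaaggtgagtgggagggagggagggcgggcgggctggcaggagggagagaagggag
Klf1: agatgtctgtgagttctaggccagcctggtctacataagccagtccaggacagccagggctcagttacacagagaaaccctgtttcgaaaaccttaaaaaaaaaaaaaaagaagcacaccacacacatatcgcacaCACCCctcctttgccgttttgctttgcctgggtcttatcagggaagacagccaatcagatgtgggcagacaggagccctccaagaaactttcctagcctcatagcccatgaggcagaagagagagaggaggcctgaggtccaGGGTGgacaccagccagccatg
In Gata1, the boxes began 74 and 52 bases before the start, and in Klf1 one began 114 bases before and one 29 bases after it. Of the 10 genes, 8 had such a window, 11 windows in all, and Lmo2 and Nfe2 were not matched. CACCC was found on either strand in 8 of the 11 windows, in each of the 8 genes at least once, against 57.5% of all 32851 promoter windows of this length. The E-box CANNTG, the letters bound by TAL1 with its partners, was found in 7 of the 11 windows against 72.3% of all windows. Of the letters bound by GATA factors only AGATAA was searched, which stood in 1 window, of Tal1, against 11.2%. Other forms such as TGATAA were not counted, and TGATAA stands in the Klf1 window shown (as TTATCA) and in that of Gfi1b. The STAT letters TTCNNNGAA stood in 1 window, of Gfi1b, against 8.30%. Both strands were read for all motifs. These matches are a description of the letters only.

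On the genome (GRCm38), Gata1 lies on chromosome X (7959260-7978071), Klf1 and Zfpm1 on chromosome 8 (84901928-84905291 and 122282141-122337251), Lmo2 and Gfi1b on chromosome 2 (103957986-103981878 and 28609450-28621982) and Gata2 on chromosome 6 (88193891-88207032). Tal1 lies on chromosome 4 (115056426-115071755), Nfe2 on 15 (103248212-103258403), Myb on 10 (21124935-21160984) and Runx1 on 16 (92601466-92826149). A transcript on the opposite strand overlaps Lmo2, Myb and Runx1, and Zfpm1 is overlapped on its own strand by Gm20388, so UMIs of these 4 genes could in part be assigned to the neighbour or from it.

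Without 3395 called doublets and 596 cells of the WT sort in which tdTomato was seen, 37841 cells in 87 labelled types remained, with 360 to 4327 cells and 20682659 to 138613245 UMIs per library. Stat3 itself, the deleted gene, gave 1.16 to 2.54 CPM (UMIs scaled to a common library total in the usual way) in the null libraries and 6.14 to 9.31 in the WT libraries, so each null library lay below each WT library. The cells used had 37351 distinct barcodes, of which 488 occurred in more than 1 library. CPM was taken over the summed cells of a type. Globin alone made up 10.1 to 22.6% of the UMIs of E8.5 Erythroid cells and 31.4 to 35.1% of those of E9.5 WT Erythroid cells. The fold changes were fitted without globin and other genes left out largely as in the study. These held 39.98 to 62.7% of Erythroid UMIs per library from E8.5 on. The fold changes can therefore differ in size, and for small differences in sign, from ratios of CPM. Because the libraries read 3′ ends, CPM counts molecules and needs no correction for transcript length.

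In WT embryos all 10 factors had their highest mean level in a blood cell type, among the 87 combinations of type and stage with over 15 cells in at least 2 libraries. Cell types were assigned from expression, so the levels across types are a description with no test. Gata1 stood highest in E7.5 Blood progenitors (184.1 ± 9.0 CPM, SD, n = 2), followed by E9.5 Megakaryocyte progenitors (150.05 ± 15.2, n = 2). Its level in Erythroid cells was 93.1 ± 8.0 at E8.5 (n = 2) and 73.5 ± 7.9 at E9.5 (n = 4). The first pair of Gata1 levels lay further apart than their SDs. Among the ranked combinations EMP followed at 14.8 ± 3.0, close to the 12.9 ± 2.7 of extra-embryonic ectoderm, with overlapping spread. Cells labelled MEP and Chorioallantoic-derived erythroid progenitors had too few WT libraries with over 15 cells to be ranked. Pooled WT Gata1 was at 134.8 (E8.5, 22 cells) and 231.3 CPM (E9.5, 7 cells) in MEP. In the chorioallantoic cells it was at 36.2 (E8.5, 61 cells) and 27.9 (E9.5, 16 cells).

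Klf1 had a different order, with Erythroid cells first: 222.9 ± 4.1 CPM at E9.5 and 214.0 ± 9.1 at E8.5, within their spread on this scale. Over the UMIs of the genes not left out, the E9.5 libraries were at 502.2 to 531.2 and those of E8.5 at 444.6 and 359.5, without overlap. Among the ranked combinations Blood progenitors followed at 79.2 ± 21.8 and Megakaryocyte progenitors at 12.04 ± 14.3. The unranked MEP lay between Erythroid cells and Blood progenitors, at a pooled 102.3 (E8.5) and 139.7 CPM (E9.5, 7 cells) in WT. So did the chorioallantoic cells, at 85.8 (E8.5) and 99.7 (E9.5, 16 cells). In the 78 combinations outside blood and its closest relatives, the median Klf1 level was 0.759 CPM and the highest 2.89.

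Among the partners in the complex, Tal1 was at 196.7 ± 0.107 CPM in Blood progenitors and 179.3 ± 43.2 in Embryo proper endothelium at E8.5, within the spread of the latter, and at 124.1 ± 4.8 in E8.5 Erythroid cells. Lmo2 was also shared with endothelium: 360.0 ± 3.2 in Blood progenitors, 326.1 ± 70.2 in Embryo proper endothelium and 307.7 ± 53.9 in E9.5 Venous endothelium. Erythroid cells came only 11th and 12th for Lmo2, at 99.8 ± 30.8 (E8.5) and 47.6 ± 9.6 (E9.5), below somitic mesoderm of E9.5 (181.0 ± 59.9). This order is one of shares of all UMIs: over the genes not left out, E8.5 Erythroid cells (184.0) were above Presomitic mesoderm (159.7 at E9.5 and 145.1 at E8.5), which CPM puts above them. Zfpm1 was the most widely expressed of the factors, at 430.9 ± 16.1 in Megakaryocyte progenitors, 349.7 ± 21.7 in Blood progenitors, 268.0 ± 19.7 in E8.5 Erythroid cells, and still 137.5 ± 8.4 in extra-embryonic ectoderm and 119.3 ± 13.9 in Epicardium.

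Nfe2 and Gfi1b, which megakaryocytes also need, were highest in Megakaryocyte progenitors, at 194.9 ± 49.6 and 144.4 ± 24.0 CPM. In Erythroid cells Nfe2 was at 65.7 ± 2.7 (E8.5) and 52.7 ± 13.6 (E9.5), and Gfi1b at 39.7 ± 4.2 and 31.3 ± 4.7.

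The progenitor factors stood low in Erythroid cells. Gata2 was at 144.0 ± 18.4 CPM in Blood progenitors, then 44.1 ± 12.3 in Embryo proper endothelium and 25 to 26 in EMP. Runx1 was at 294.5 ± 48.3 in Blood progenitors, 283.4 ± 22.1 in E8.5 EMP and 280.2 ± 51.0 in Megakaryocyte progenitors, neighbours that could not be ordered, against 24.96 ± 13.7 and 10.7 ± 6.9 in Erythroid cells of E8.5 and E9.5. Myb was at 91.5 ± 7.6 in E8.5 EMP, 79.3 ± 14.5 in Blood progenitors and 74.8 ± 18.8 in E9.5 EMP, again within each other's spread. Over all cells used, of both genotypes, blood types held 96.2% of the Klf1 UMIs, 95.4% of the Gfi1b, 94.03% of the Gata1 and 93.6% of the Nfe2 UMIs, but 46.6% of those of Gata2 and 36.1% of those of Myb.

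**Figure D1:**
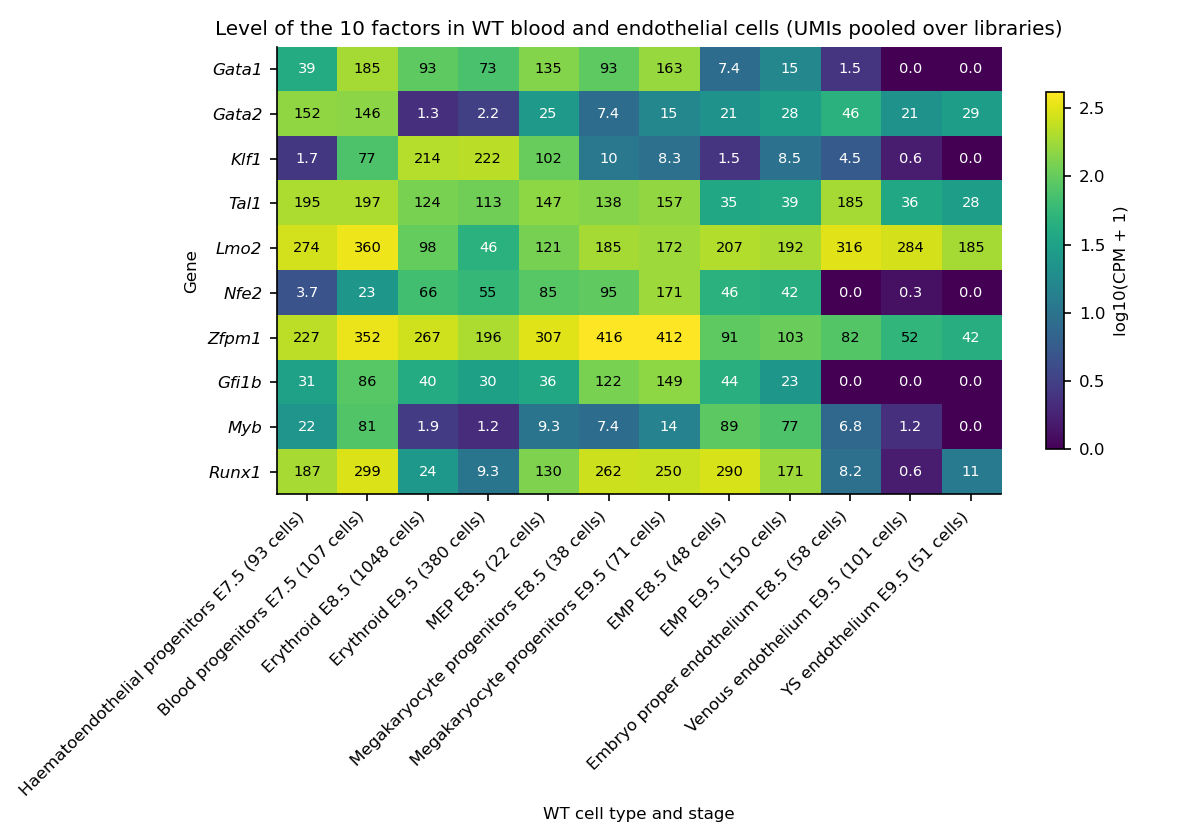
Pooled WT level of the 10 factors (rows) in 12 blood and endothelial cell types by stage (columns), as colour on a log10 scale of CPM + 1. Klf1 is highest in Erythroid cells, whereas Lmo2 and Tal1 are high in both Blood progenitors and endothelium, and Runx1 and Myb in Blood progenitors and EMP.

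Cells just before blood, the Haematoendothelial progenitors of E7.5, held Gata2 at 151.6 and Tal1 at 195.4 CPM in pooled WT cells (93 cells), close to the pooled 145.8 and 196.7 of Blood progenitors. Lmo2 (274.4 against 360.3), Zfpm1 (227.2 against 351.9) and Runx1 (186.7 against 299.4) were present below their Blood progenitor levels. Gata1 was at 39.5 and Klf1 at 1.67 in the same cells. In Blood progenitors, counted after thinning each cell to 10000 UMIs, 51 of 107 WT cells had UMIs of both Gata1 and Gata2 (47.7%, 95% exact binomial interval 37.9 to 57.5%). The same cells had both Gata1 and Runx1 in 75.7% and both Gata1 and Klf1 in 38.3%. Such intervals and those on sums of UMIs cover counting error only.

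Order along the path was the leading principal component (1000 variable genes, none of them among the 10 factors) of 2702 Haematoendothelial progenitor, Blood progenitor and Erythroid cells. Positions were scaled on WT medians, with Haematoendothelial progenitors at 0 and E9.5 Erythroid cells at 100. The component held 12.8% of the variance. Position went largely with stage. In WT the first bin rests on libraries of E7.5, the bins from 40 to 80 on E8.5, and the last on E8.5 and E9.5. Changes along the path were thus not separated from differences between stages and libraries. In WT cells Gata2 went from a library mean of 162.5 CPM below position 20 to 42.3 at 20 to 40 and 3.25 at 40 to 60. Runx1 went from 267.3 to 142.0, 62.1, 27.3 and 12.8 over the 5 bins, Myb from 61.8 to 0.791 and Lmo2 from 327.5 to 61.6. These factors were at their lowest, or within a few CPM of it, in the last bin.

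Klf1 ran the other way, at 40.3 CPM in the first bin, 115.9 in the next and 224.7 in the last. Nfe2 also ended higher, at 15.8 in the first and 58.4 in the last bin. Gata1 was at 118.2 in the first and 80.05 in the last bin. Its mean of 168.5 at 20 to 40 rests on 36 cells in 2 libraries, at 125.8 and 211.2, which overlap the 98.3 to 138.0 of the first bin, and over 3 wider bins it went from 131.7 to 101.8 and 80.8 with no rise between. Tal1 stayed between 100.1 and 204.4 and Zfpm1 between 221.1 and 306.1 throughout. These CPM are shares of all UMIs, of which globin takes more along the path. Over the UMIs of the genes not left out, Gata1 was at 160.8 in the first and 175.4 in the last of the 5 bins and 180.0, 160.0 and 174.7 over the 3 wider bins, Zfpm1 at 417.0 and 483.0, and Tal1 at 278.6 and 255.6. In WT the order of first and last bin was as in CPM for Gata2, Runx1, Myb, Lmo2, Klf1 and Nfe2. Only 1 WT library had over 15 cells in the middle bin.

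**Figure D2:**
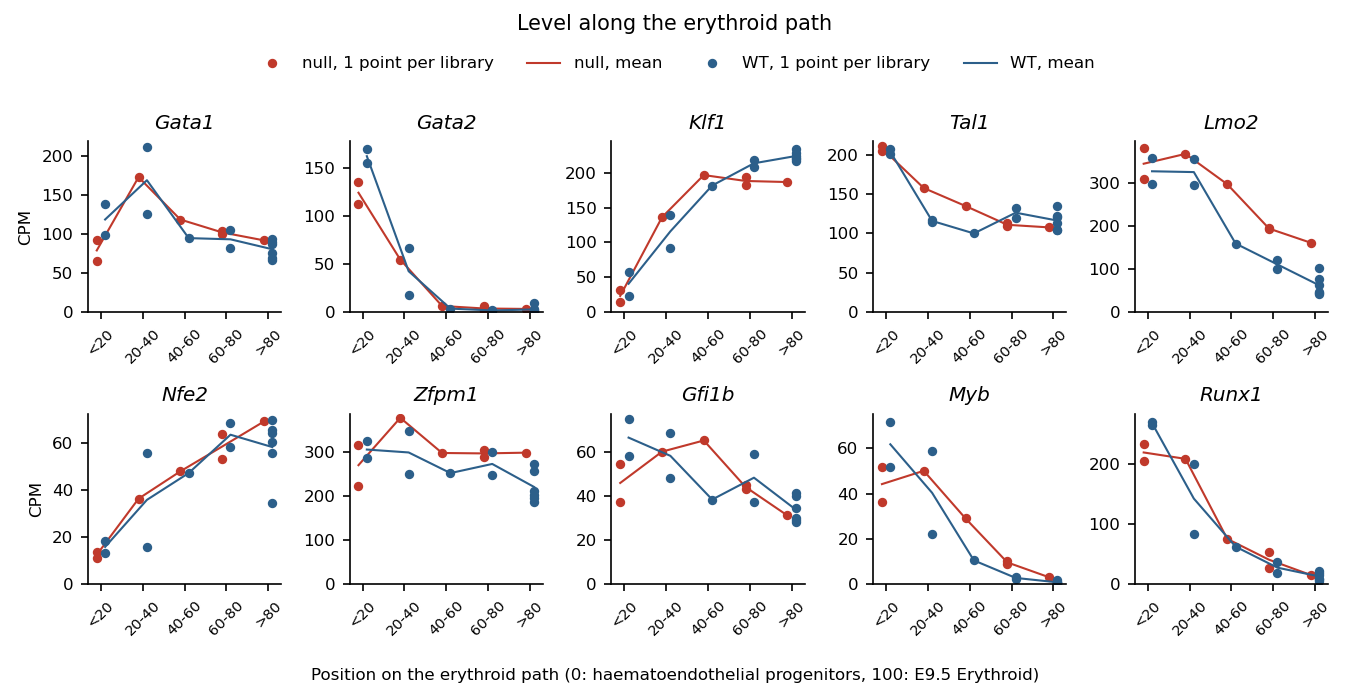
CPM of each factor (10 panels) against the bin of position on the path, with 1 point for each library with over 15 cells in the bin and lines through the means, null in red and WT in blue. Gata2, Runx1, Myb and Lmo2 are lower and Klf1 and Nfe2 higher in the last bin than in the first in both genotypes, and for Lmo2 the null points of the last 3 bins lie above the WT points.

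At E7.5, the question was whether null Blood progenitors set up the same factors. None of the 10 factors was called different (adjusted p under 0.05 by Benjamini-Hochberg in edgeR's quasi-likelihood test, and a log2 fold change beyond 1 in either direction), against 28 of 8194 genes, or 0.342%. Of the 10 factors 1 had an unadjusted p under 0.05, and DESeq2 and limma-voom also called 0. Null A held 154 and null B 18 of these cells, WT A 40 and WT B 67. Gata1 was at 157.8 and 158.2 CPM in the null libraries and 177.8 and 190.5 in the WT libraries. The null libraries lay just below WT, with a log2 fold change of -0.18. Gata2 showed the largest difference of the 10, at 99.1 and 124.0 in null against 131.0 and 157.0 in WT. Its log2 fold change was -0.38 (SE 0.14, 95% interval -0.68 to -0.08), adjusted p = 0.76, and the groups did not overlap, as in 34.2% of the genes tested.

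Klf1 was at 84.4 and 63.6 CPM in null and 94.6 and 63.8 in WT Blood progenitors, a spread within each genotype that exceeded the difference between them. Lmo2 was at 341.1 and 362.9 in null and 357.7 and 362.2 in WT, with a log2 fold change of 0.00. The remaining factors had log2 fold changes between -0.29 (Myb) and 0.26 (Nfe2). The earlier Haematoendothelial progenitors could be fitted only with the minimum lowered to over 5 cells (76, 23, 8 and 85 cells in null A, null B, WT A and WT B). There Gata1 was at 18.8 and 22.1 in null and 31.3 and 40.5 in WT, a log2 fold change of -0.90 (SE 0.27) with adjusted p = 0.57, and 0.128% of genes were called.

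The regulators around the 10 factors gave 2 calls in Blood progenitors. Of 30 other blood transcription factors, 18 were tested and 2 called, both lower in null: Stat5a, at a mean of 0.519 against 17.1 CPM (log2 fold change -4.17, SE 0.49, adjusted p = 8.08e-05), and Stat5b, at 12.4 against 34.2 (-1.58, SE 0.24, adjusted p = 0.0014). STAT5 carries the erythropoietin signal in red cell precursors. Stat5a overlaps the deleted gene Stat3 on the opposite strand of chromosome 11. Of 23 partners of the factors, such as Ldb1, 21 were tested and none called at a fold change beyond the threshold, and 25 of 36 erythroid target genes were tested with none called and a median log2 fold change of 0.02, against 0.00 over all genes. Of the markers of yolk sac endoderm, a possible source of free RNA, 1 was called, Ttr, lower in null at 0.130 against 9.81 CPM (log2 fold change -5.26, adjusted p = 0.0013). Its part in the other values was not tested.

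Erythroid cells of E7.5 came almost wholly from null A (17 cells, against 4 and 1 in the WT libraries), so no comparison was made. In null A they held Gata1 at 143.4 CPM, Klf1 at 165.2, Lmo2 at 308.6, Runx1 at 167.3, Myb at 26.1 and Gata2 at 10.9.

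At E8.5, Erythroid cells were plentiful in both genotypes (null A 594, null B 131, WT A 426, WT B 622), and the 10 factors were all tested. None was called, against 9 of 10145 genes, or 0.0887%. With an unadjusted p under 0.05 there were 2 (Lmo2 and Myb), DESeq2 called 1 (Myb) and limma-voom 0. Over the 10 alternatives that left out no library, DESeq2 among them, 6 to 140 genes were called, and the number for DESeq2 alone is not given here. Lmo2 was the nearest to a call, higher in both null libraries. It was at 170.9 (null A) and 203.9 CPM (null B) against 78.0 (WT A) and 121.6 (WT B), from 1026 to 4203 UMIs per library. Every null library lay above both WT libraries. The log2 fold change was 0.88 (SE 0.14, 95% interval 0.56 to 1.20) with adjusted p = 0.077, so that it passed neither the p threshold nor the fold threshold. Over 14 alternative settings its adjusted p ran from 3.06e-06 to 0.0774, under 0.05 in 8 of them, and 1 passed the fold threshold as well. The difference was spread over cells: 574 of the 594 null A cells had a Lmo2 UMI, and the 5 cells with most of them held 3.21% of the total. After thinning to 10000 UMIs per cell, a Lmo2 UMI was found in 77.4% of the pooled null cells (95% exact binomial interval 74.2 to 80.4%). In the pooled WT cells the share was 59.2% (56.1 to 62.2%), and in forebrain cells, which should lack Lmo2, 1.6 to 7.6%. Cells were pooled over libraries and are not replicates, and shares by library are not given here. Median depths before thinning were 40755 and 31385 UMIs in null and WT Erythroid cells, and unthinned shares were 96.6% and 87.6%.

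Myb stood at a far lower level. It was at 4.88 (null A) and 13.7 CPM (null B) against 0.950 (WT A) and 2.996 (WT B), from 120, 69, 18 and 49 UMIs. Both null libraries were above both WT libraries, but within each genotype the B library was far above the A library. The log2 fold change was 2.09 (SE 0.60, interval 0.59 to 3.58), adjusted p = 0.43. Shares of cells with a Myb UMI were 5.79% in null and 2.10% in WT after thinning, and 3.3 to 8.7% in forebrain cells. Blood types held only 36.1% of all Myb UMIs, so forebrain cells cannot set a floor for Myb. These shares pool cells over libraries, and no order was read from them. Single libraries were left out of a fit that held the Erythroid libraries of all stages, which itself called 86 genes and 0 of the factors. Leaving out WT B from it brought both Lmo2 (log2 fold change 1.05) and Myb (2.89) past the thresholds, and leaving out null A brought Myb (2.69).

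Because A and B libraries differed in how far their cells had gone along the path (the median position was 84.1 for null A, 69.7 for null B, 89.6 for WT A and 74.9 for WT B), Lmo2 was also compared within bins. At positions 60 to 80 it was at 192.3 and 195.4 CPM in null and 99.1 and 121.3 in WT, a ratio of 1.76. At 80 and over, null A was at 160.8 and the WT libraries at 75.7 and 101.5, a ratio of 1.81, and at 40 to 60 null B was at 297.3 and WT B at 159.0, a ratio of 1.87. In each of the 3 bins the null cells were higher, 2 of the bins resting on 1 null library. At 40 to 60 every other factor was also higher in null B than in WT B, such as Tal1 with a ratio of 1.35. That bin therefore shows nothing particular to Lmo2. Myb was higher in null in all 3 bins too, with ratios of 2.77 at 40 to 60, 3.51 at 60 to 80 and 4.89 at 80 and over. At 60 to 80 only Lmo2 and Myb had both null libraries above both WT libraries. Positions within a bin still differed: at 60 to 80 the medians were 75.8 and 70.3 in null and 77.5 and 73.1 in WT. With only cells at positions of 50 or more, Lmo2 had a log2 fold change of 0.84 and adjusted p = 0.041, under the fold threshold, and Myb 2.01 with adjusted p = 0.24, where 0.38% of genes were called.

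**Figure D3:**
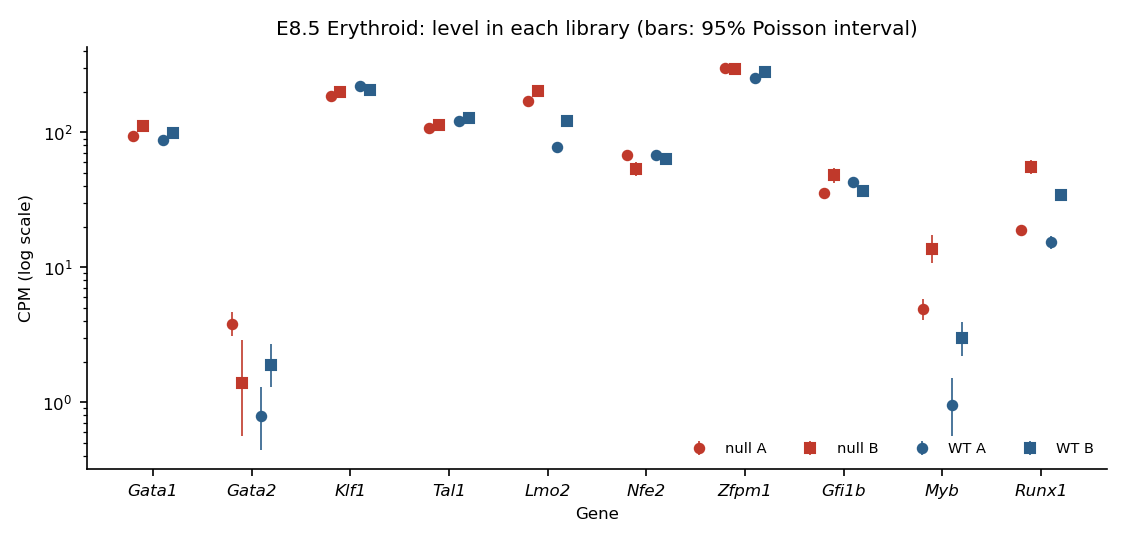
CPM of the 10 factors in E8.5 Erythroid cells on a log axis, 1 point for each of the 2 null (red) and 2 WT (blue) libraries with the 95% Poisson interval of its UMIs. The null points lie above the WT points for Lmo2 (170.9 and 203.9 against 78.0 and 121.6), Myb and, by less, Zfpm1, they lie below them for Klf1 and Tal1, and the points of Gata1, Nfe2 and Gfi1b overlap.

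The activators at the centre of the erythroid programme had small log2 fold changes. Gata1 was at 93.9 and 110.5 CPM in null and 87.5 and 98.8 in WT, with overlapping libraries and a log2 fold change of 0.08 (95% interval -0.17 to 0.33). Klf1 was at 185.6 and 198.2 in null against 220.4 and 207.5 in WT, a log2 fold change of -0.22 (SE 0.14, interval -0.55 to 0.11) with adjusted p = 0.79. Tal1 was at 108.5 and 113.9 against 120.7 and 127.5, with -0.21 and adjusted p = 0.74. For both of these the null libraries were lower without overlap. Such a lack of overlap was seen in 26.8% of the genes tested there, and for 5 of the factors (Klf1, Tal1, Lmo2, Zfpm1 and Myb). Over the UMIs of the genes not left out, Zfpm1 overlapped and Gata1 did not. With 2 libraries against 2, no permutation p could go below 0.333.

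Zfpm1 was at 301.2 and 294.0 CPM in null and 254.1 and 282.0 in WT, with a log2 fold change of 0.11. Nfe2 (67.6, 53.9 against 67.7, 63.8) and Gfi1b (35.3, 48.1 against 42.6, 36.7) had overlapping libraries. Runx1 was higher in both B libraries than in both A libraries, at 18.8 in null A and 15.3 in WT A but 55.3 in null B and 34.6 in WT B. Gata2 was low, at 3.82, 1.39, 0.792 and 1.90 CPM in null A, null B, WT A and WT B, from 94, 7, 15 and 31 UMIs, and its log2 fold change of 1.18 had an interval from -0.12 to 2.48.

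Markers of other cells were low in these Erythroid cells. Over null A, null B, WT A and WT B, the summed levels were 23.7, 29.4, 14.99 and 26.6 CPM for 10 megakaryocyte markers, 8.62, 11.5, 6.44 and 11.1 for 10 endothelial markers, and 25.2, 36.8, 15.1 and 33.5 for 8 progenitor markers. Each of these lists was highest in null B and lowest in WT A, the same libraries that were highest and lowest for Lmo2 and Myb. Their part in those values was not tested. Myeloid markers summed to between 0.489 and 2.56 CPM and yolk sac endoderm markers to between 2.96 and 7.58. Of 34 erythroid targets tested none was called, 7 had a value above 0 and the median log2 fold change was -0.18, against 0.01 over all genes. None of the 22 partners tested was called (median 0.07), nor any of the other blood factors, among which Hhex (1.54, adjusted p = 0.063), Stat5a (-2.23, adjusted p = 0.080) and Stat5b (-1.38, adjusted p = 0.076) came nearest. At positions of 50 or more these 3 were called, with log2 fold changes of 1.53, -2.20 and -1.37 and adjusted p = 0.030, 0.041 and 0.034.

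EMP, the second wave, were few at E8.5 (37 and 7 null cells, 27 and 21 WT cells) and were fitted with over 5 cells, where 0% of 6295 genes were called (edgeR quasi-likelihood test) and 233 had an unadjusted p under 0.05. Runx1 was at 239.1 and 230.8 CPM in null and 299.0 and 267.7 in WT, and Gfi1b at 20.4 and 40.4 against 41.5 and 51.0. Both lay lower in null, with log2 fold changes of -0.30 and -0.88 and adjusted p = 1.0.

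At E9.5, EMP of null A and D (71 and 20 cells) were tested against 4 WT libraries (22 to 50 cells), and none of the 10 factors was called, against 0.182% of 8771 genes. Only Gata1 had an unadjusted p under 0.05, and DESeq2 and limma-voom called 0. Gata1 was the nearest. It was at 4.10 CPM in null A, 8.95 in null B, 3.87 in null C and 7.54 in null D, and at 15.3, 13.4, 11.8 and 18.8 in the WT libraries. Every null library, from 3 to 12 UMIs each, lay below every WT library, from 16 to 37 UMIs. How many of all genes showed such a lack of overlap was not computed for this contrast. The log2 fold change was -1.48 (SE 0.38, 95% interval -2.30 to -0.66), adjusted p = 0.21. With null B and C (8 and 14 cells) added it was -1.46 (SE 0.34), adjusted p = 0.073, where 0.276% of genes were called, and without the filter on low counts -1.495, which passed both thresholds.

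Nfe2 was at 22.6, 23.9, 14.2 and 28.5 CPM in the null EMP libraries and 34.0, 26.0, 37.0 and 65.7 in WT, overlapping at one library, with a log2 fold change of -0.71. Myb was at 42.1, 50.7, 41.3 and 68.7 against 80.035, 78.8, 48.1 and 92.3, with -0.49 and adjusted p = 0.76. Runx1, high in these cells but not only there, was at 140.6, 271.6, 217.0 and 212.9 in null and 168.4, 184.5, 153.1 and 177.8 in WT. Its null libraries fell on both sides of WT, with a log2 fold change of 0.04. Lmo2, at 162.8, 137.3, 237.6 and 352.8 against 182.5, 213.7, 170.1 and 206.4, varied more among null than among WT libraries. No gene of the lists was called in EMP. Progenitor markers summed to 560.2 and 569.05 CPM in null A and D, the null libraries tested, against 586.0 to 711.5 in WT (median log2 fold change -0.18, 2 of 7 tested with a higher value), and endothelial markers to 133.0 and 175.2 against 159.8 to 292.5 (-0.44, 2 of 9). Megakaryocyte markers had a median of -0.32 (3 of 7). With null B and C added, the medians were -0.22, 0.11 and 0.31. Myeloid markers had a median of 0.21 (7 of 10 tested with a higher value), and of 0.44 (8 of 10) with these libraries added. The part of all these markers in the factors' values was not tested.

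Megakaryocyte progenitors of E9.5 (16, 6 and 7 cells in null A, B and D, and 10 to 34 in WT) were fitted with over 5 cells, where 0.0768% of genes were called. Lmo2 was again higher in null, at 255.2, 372.8 and 248.99 CPM against 176.3, 159.2, 164.3 and 179.4 in WT, whereas the 3 cells of null C, not in the fit, gave 104.1. The log2 fold change was 0.77 (SE 0.20, interval 0.35 to 1.20) with adjusted p = 0.40. The 6 other factors tested there had log2 fold changes between -0.05 and 0.24.

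**Figure D4:**
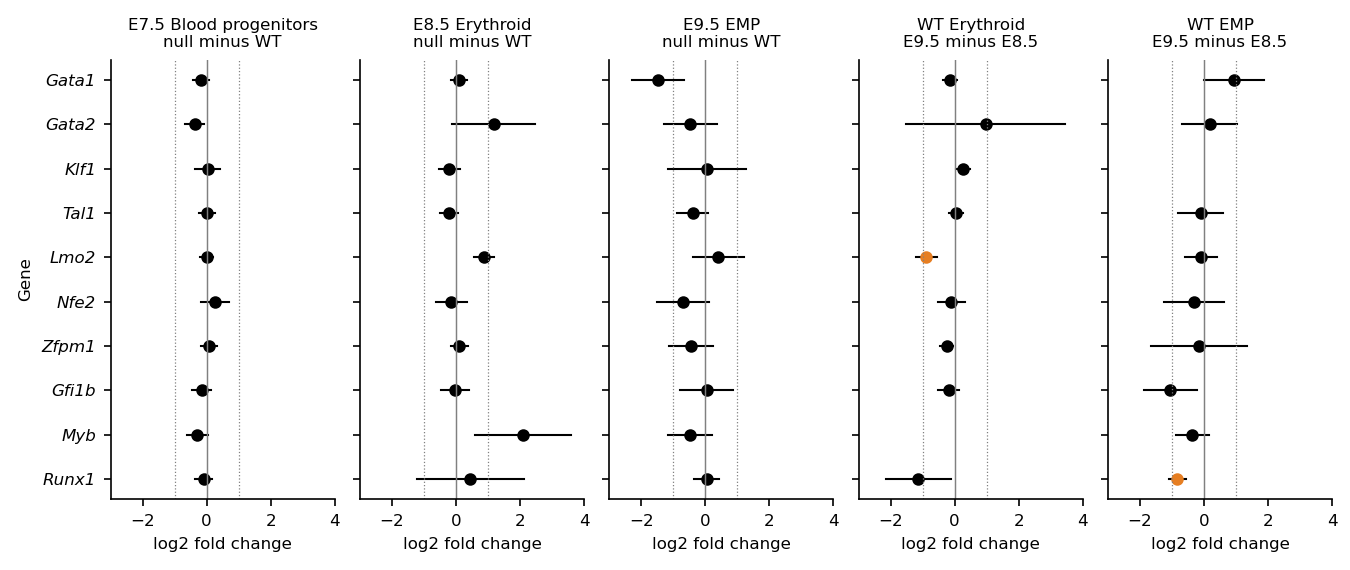
Log2 fold change of each factor with its 95% interval in 5 contrasts, null minus WT in E7.5 Blood progenitors, E8.5 Erythroid cells and E9.5 EMP, and E9.5 minus E8.5 in WT Erythroid cells and WT EMP. Dotted lines mark a log2 fold change of 1 in either direction and orange marks an adjusted p under 0.05, which Lmo2 in WT Erythroid cells and Runx1 in WT EMP reach.

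E9.5 Erythroid cells of null origin were too few for the planned test. There were 19 of them in all, 9, 2, 2 and 6 in null A to D, against 164, 43, 38 and 135 in the WT libraries, and 14 of the 19 had a tdTomato UMI. Of all E9.5 null cells used 97.6% had one, and of the null Erythroid cells of E8.5 63.9%. The 5 cells without one all lay at position 80 or over. In the 2 Erythroid cells of null C, Stat3 was at 51.2 CPM from 2 UMIs, above the WT libraries, and in the other null libraries there was 1 Stat3 UMI in all. Pooled, 8 of the 10 factors had a higher CPM in null than in WT cells, with Klf1 close to WT on this scale (217.0 against 221.8) and Myb at 0 UMIs (a UMI in 0 of 19 cells, where the floor of 3 counts allows up to 15.8% of cells with a UMI and does not limit cells expressing the gene) against 1.17 CPM. The share of all genes higher in null is not given here. Globin and the other left-out genes held 44.9, 62.7, 56.3 and 48.9% of Erythroid UMIs in null A to D, against 55.7 to 57.9% in the WT libraries. The CPM of the 2 genotypes thus rest on unlike shares, and their part in these differences was not tested. Gata1 was at 136.7 against 72.6 and Nfe2 at 147.6 against 55.0. Runx1 was at 86.8 against 9.32, and Gata2 at 60.8 against 2.15. All 28 Gata2 UMIs and 35 of the 40 Runx1 UMIs came from the 7 null cells at positions below 80, and 17 of the Gata2 UMIs from 1 cell of null D, without which Gata2 was at 27.4 CPM. Of the 82 Tal1 UMIs 40 came from 1 cell of null A, and without it Tal1 was at 95.5 CPM in null, below the 112.9 of WT. The 12 null cells at 80 and over held Gata1 at 79.4, Tal1 at 101.1 and Runx1 at 18.1 CPM, nearer to the pooled WT levels than all 19 cells were, whereas Klf1 at 202.2 and Lmo2 at 72.2 were further from theirs (221.8 and 45.6).

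In a fit of null A and D against the 4 WT libraries (over 5 cells), 9 of the factors were tested and 2 called higher in null (as were 1.41% of genes), Runx1 (log2 fold change 3.25, SE 0.47, adjusted p = 0.0022) and Nfe2 (1.29, SE 0.30, adjusted p = 0.026), where 2.46% of genes were called in either direction. When all libraries with a cell were fitted, 0 factors were called, Nfe2 having 0.99 and adjusted p = 0.056, where 1.56% of genes were called. In the over 5 cells fit Gata1 had 0.88 with adjusted p = 0.028, under the fold threshold. The megakaryocyte markers summed to 296.3 CPM in null A and 30.8 in null D against 19.9 to 39.1 in the WT libraries. Progenitor markers (156.5 and 36.9 against 11.5 to 21.8) and endothelial markers (16.8 and 24.6 against 2.73 to 5.64) were above WT in both null libraries, and myeloid markers in null A (33.5 against 2.29 to 3.39) but not in null D (0). In null A and null D these sums rest on 53 UMIs for the megakaryocyte list of null A and on 28 or fewer for each other list, and their part in the calls was not tested. Without the 1 null A cell with 10 or more UMIs of that list, Runx1 in null A went from 123.0 to 91.2 CPM and Nfe2 from 178.9 to 121.6, against 5.35 to 20.9 and 32.8 to 62.7 in the WT libraries, but the megakaryocyte list still summed to 176.4 CPM in the 8 cells left. In null D, 1 cell with 58594 of the 162540 UMIs held 14 of 17 Runx1, 15 of 24 Nfe2 and 21 of 32 Gata1 UMIs, and it is the cell with 17 Gata2 UMIs. Without it Runx1 in null D went from 104.6 to 28.9 CPM, Nfe2 from 147.7 to 86.6 and Gata1 from 196.9 to 105.8, and with 5 cells left null D would not enter the fit of over 5 cells. Both libraries also lay earlier on the path than WT, with median positions of 74.3 in null A and 85.9 in null D against 97.2 to 104.9 in the WT libraries, and the part of position in these calls was not tested. Among the lists, Cbfa2t3, a corepressor partner of TAL1, was higher (2.40), 6 erythroid targets were lower, led by Add2 (-2.25) and Slc25a37 (-1.17), and Myc was lower (-3.38). None of the genes of these lists was called when all libraries with a cell were fitted. Whether the null effect differed between E8.5 and E9.5 was tested as an interaction in Erythroid cells with over 5 cells, and none of the 10 factors was called, against 1.24% of genes (Gata1 0.65, adjusted p = 0.18; Lmo2 -0.88, adjusted p = 0.22; Runx1 2.66, adjusted p = 0.28).

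The stages of the WT host were compared to show how the factors move in normal development. In Erythroid cells of E9.5 against E8.5, no factor passed both thresholds in edgeR (4 had an unadjusted p under 0.05, DESeq2 called Runx1 and limma-voom called 0), where 483 of 8799 genes, or 5.49%, did so and 20.2% had an adjusted p under 0.05. Over the 6 alternatives that left out no library, DESeq2 among them, 391 to 692 genes were called. Lmo2 had a log2 fold change of -0.88 (SE 0.15, interval -1.20 to -0.56, adjusted p = 0.0012, under the fold threshold), from 78.0 and 121.6 CPM at E8.5 to 45.6, 61.8, 40.5 and 42.7 at E9.5. Each E9.5 library lay below each E8.5 library, and the share of all genes without such overlap was not computed for this contrast. The same 2 E8.5 WT libraries served as controls in the null comparison above. Runx1 went from 15.3 and 34.6 to 8.96, 20.9, 5.35 and 7.79, with a log2 fold change of -1.14 (SE 0.42) and adjusted p = 0.11, overlapping at one library. Zfpm1 went from 254.1 and 282.0 to between 181.0 and 207.1, with -0.25 and adjusted p = 0.072.

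Klf1 was level, at 220.4 and 207.5 CPM at E8.5 and 217.6 to 227.6 at E9.5, although its log2 fold change without globin was 0.25 (SE 0.10, adjusted p = 0.10). Gata1, at 87.5 and 98.8 against 66.6 to 84.0, had -0.15 and adjusted p = 0.35. Tal1, Nfe2 and Gfi1b lay within 0.04, -0.10 and -0.19, and Myb was too low to test. Gata2, low in these cells, had 0.97 with adjusted p = 0.57 by edgeR. Of the erythroid targets, 32 of 34 tested had a higher value at E9.5, 16 with an adjusted p under 0.05, and 5 were called higher, Alas2 (first enzyme of haem synthesis, 1.10), Ermap (1.31), Kel (1.35), Hemgn (1.43) and Rhd (2.25). The median of the list was 0.61 against 0.05 over all genes. Of 21 partners tested none was called, and 4 had an adjusted p under 0.05, among them Cbfa2t3 (-0.76) and Lmo4 (-0.55). Of 17 other blood factors tested, 5 were called higher (Zbtb7a, E2f2, Stat5a, Meis1 and Mecom, 1.01 to 3.57) and 1 lower (Hhex, -1.43). The megakaryocyte markers Pf4 (3.28) and Gp9 (1.32) were also called higher, Pf4 at 6.33 against 0.714 CPM, and the part of such cells in these values was not tested.

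**Figure D5:**
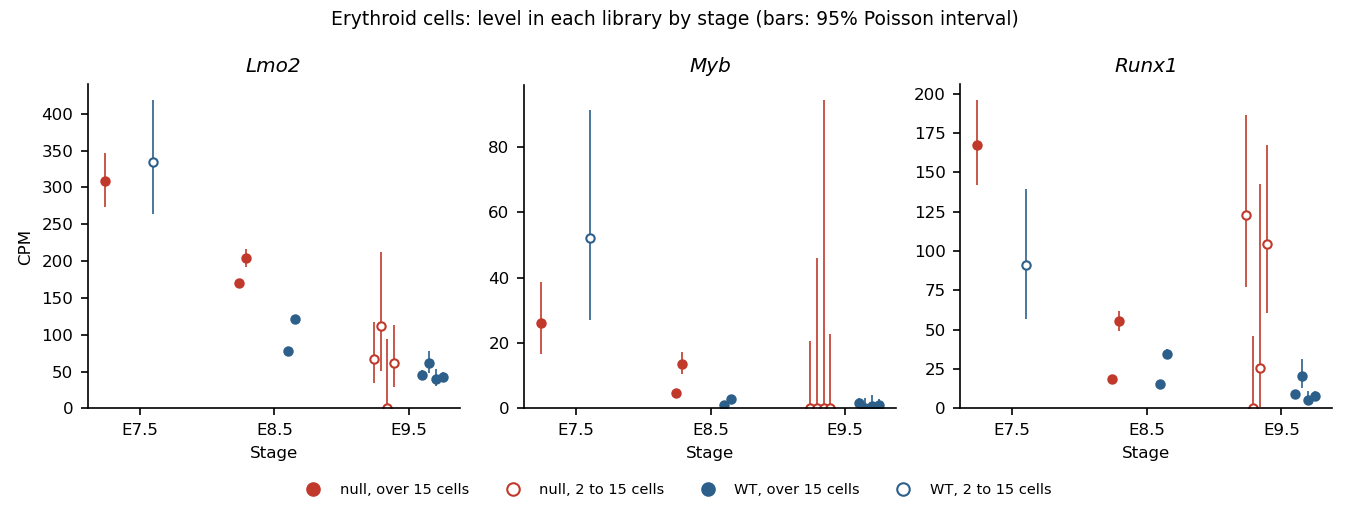
CPM of Lmo2, Myb and Runx1 in Erythroid cells by stage, 1 point per library, null in red and WT in blue, with open points for libraries of 2 to 15 cells. WT Lmo2 goes from 78.0 and 121.6 at E8.5 to 40.5 to 61.8 at E9.5, and the E8.5 null points lie above both.

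In WT EMP, E9.5 against E8.5, Runx1 had a log2 fold change of -0.84 (SE 0.13, adjusted p = 0.0047, under the fold threshold), from 299.0 and 267.7 CPM to 168.4, 184.5, 153.1 and 177.8, without overlap (as in 29.2% of genes tested), where 54 of 8312 genes, or 0.65%, were called and none of the 10 factors was (2 had an unadjusted p under 0.05). Gfi1b went from 41.5 and 51.0 to 17.8, 27.6, 12.6 and 34.9, with -1.05 (SE 0.38) and adjusted p = 0.24, and Gata1 from 8.31 and 5.10 to between 11.8 and 18.8, with 0.94 and adjusted p = 0.37. Of 9 endothelial markers tested in the same cells 0 had a higher value at E9.5, and 3 were called lower, Cdh5 (-3.12), Plvap (-2.72) and Pecam1 (-1.31). Of 6 progenitor markers tested 1 was called lower, Kit (-1.26), whereas 3 had a higher value and the median was -0.11. Myeloid markers had a higher value at E9.5 in 10 of 10 tested, with a median log2 fold change of 1.53, and none was called (5 had an unadjusted p under 0.05). The part of these markers in the Runx1 value was not tested.

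Outside blood, the factors were tested between null and WT 20 times at E7.5, 18 at E8.5 and 58 at E9.5, most often Zfpm1 (46 tests) and Lmo2 (17). No test was called in the main setting, although some were at E9.5 without the filter on low counts. Backgrounds over all types tested were 0.186% at E7.5, 0.0609% at E8.5 and 0.12% at E9.5. By edgeR, 1 test at E7.5, 0 at E8.5 and 9 at E9.5 had an unadjusted p under 0.05. Over all genes these were 2220 of 56918, 6490 of 158903 and 19663 of 315788 tests. The largest difference in size was Runx1 in Placodal ectoderm at E9.5, 29.2 ± 3.4 CPM for null against 12.04 ± 1.3 for WT (SD, n = 2 per genotype), a log2 fold change of 1.29 (SE 0.34) with adjusted p = 0.081 by edgeR. Pooled over all 4 WT libraries, 2 of them with too few cells for the fit, Runx1 there was at 19.8 CPM. Zfpm1, the factor with the broadest expression, had log2 fold changes from -0.69 to 0.83 over its 46 tests.

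Genes whose WT pattern was most like that of each factor were also sought. Likeness was the Pearson r of log2(CPM + 1) over 39 combinations of type and stage with over 50 cells in at least 2 libraries, which share libraries and blood content and so are not independent. Among the 3 genes most like each factor, those for Klf1 included Trim10 (r = 0.97) and Slc25a37 (mitochondrial iron importer, 0.96), and those for Nfe2 included Trim10 (0.97). Those for Gata1 included Gpx1 (0.94) and Blvrb (0.89), those for Tal1 Blvrb (0.91) and Trim10 (0.90), and those for Gfi1b Trim10 (0.96) and Klf1 itself (0.96).

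The only blood cells among these combinations were Erythroid cells of E8.5 and E9.5. The other blood types, where all the factors but Klf1 were highest, and endothelium had no part in the likeness. A high r with the factors named above can therefore rest on the Erythroid cells alone. Lmo2 was most like Gmpr (0.74), Ino80c (0.73) and H2afj (0.72), Gata2 like Pip4k2c (0.70), Atg2a (0.70) and Dot1l (0.69), and Zfpm1 like Cox17 (0.78), Ubac1 (0.76) and Nfe2l2 (0.75). Runx1 was most like Ncoa4 (0.81), Ptdss2 (0.81) and Fth1 (0.79), and Myb like Zfhx2 (0.85), Zmiz2 (0.83) and Zcchc18 (0.82).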

How the data were processed

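The matrix deposited by the authors holds UMI counts per gene and cell, from Cell Ranger on mm10 (per the submitters' processing notes) with tdTomato added. It was filtered by the authors on reads, genes, mitochondrial percent and ribosomal percent, and the doublet calls and cell type labels transferred from an atlas were theirs. Counting by strand is not given in the sources used here. Counts were summed per library and type. A type was tested where 2 or more libraries per genotype had over 15 of its cells, with edgeR 4.0.16 (robust quasi-likelihood fit, filterByExpr, TMM, Benjamini-Hochberg adjustment over all genes of a type) in R 4.3.3, after leaving out 8176 genes, which kept 21277. The 8176 followed most of the study's name rules, but imprinted genes and names such as Gmpr, which the study left out, were kept. The fit was tested on simulated data. Groups came from stage and sort gate. The study's embryo pool term could not be fitted because libraries match no labelled pool. The 10 factors were all named. Of each list, at most 6 genes past both thresholds were named per contrast, and in some contrasts not all of them. Others were named only where they came near and were chosen after their values were seen. For likeness the 3 highest r among genes of at least 5 CPM were named, except some that are not reported here. The genes and lists were chosen with earlier results of these data known. Alternatives were DESeq2 1.42.0, limma-voom (limma 3.58.1), no filter, other cell minimums, tdTomato-positive null cells only and leaving out libraries. Chosen after seeing the data were over 5 cells per library and WT stages at path positions of 50 or more. Protein sequences were not used here.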

Additional observations from a re-analysis of the deposited data

Results flagged for a closer look

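Gfi1b in E9.5 WT Erythroid cells had 1 library apart from the other 3. WT C was at 38.2 CPM, from 50 UMIs in 38 cells, and the others lay between 28.2 and 29.8. The gap was 0.835 of the range, above Dixon's critical value of 0.829 for 4 samples. Of 20 groups of 4 libraries tested, this was the only flag, and chance flags about 1 group in 20.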

How the results depend on the processing

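No paired analysis was possible because the library names carry no replicate number or embryo pool. Members called at E8.5 went from 0 to 1 with DESeq2 (Myb), and stayed at 0 with all stages in 1 fit. Libraries were left out in turn from that joint fit, which gave 0 to 2 (Lmo2 and Myb without WT B, Myb without null A). At E9.5 the count went from 0 to 6 without the filter on low counts and to 2 with over 5 cells (Runx1 and Nfe2 in Erythroid cells). Of the 6, Gata1 in EMP was 1, where 70 genes were called in that setting, and the others lay in types outside blood. The share of all genes called over those types in that setting is not given here. Between WT stages it went from 0 to 1 with DESeq2 (Runx1, -1.07), 1 without the filter (Gfi1b in EMP, -1.02) and 0 to 2 on leaving out libraries (Lmo2 and Runx1 without E8.5 WT A or E9.5 WT B, Gfi1b in EMP without E9.5 WT D). The cause was not tested. Of 594 alternative values for 48 single log2 fold changes, 535 kept their direction and side of the threshold, 12 were newly called and 47 changed sign, all of the last in values not called.

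Outside the left-out libraries, the values that had changed sign were small, although Gata2 in WT Erythroid cells had come from 0.97 in the main fit. With voom they were Tal1 -0.019 and Lmo2 -0.009 in Blood progenitors, Klf1 -0.029 and Runx1 -0.033 in E9.5 EMP, Gata2 -0.108 in WT Erythroid cells, and Tal1 0.057 and Zfpm1 0.097 in WT EMP. Klf1 in Blood progenitors was -0.022 with DESeq2. With null cells that had a tdTomato UMI, Gfi1b was 0.054 in E8.5 Erythroid cells and -0.018 in E9.5 EMP. Tal1 in WT Erythroid cells was -0.015 without the filter and -0.002 at path positions of 50 or more.

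With libraries left out in turn, ranges that crossed 0 were, in Blood progenitors, Klf1 -0.26 to 0.31, Tal1 -0.10 to 0.18, Lmo2 -0.033 to 0.048, Zfpm1 -0.16 to 0.23 and Runx1 -0.246 to 0.083. In E8.5 Erythroid cells they were Gata2 -0.061 to 1.738, Nfe2 -0.461 to 0.075, Zfpm1 -0.028 to 0.215, Gfi1b -0.27 to 0.25 and Runx1 -0.31 to 1.03. In E9.5 EMP they were Klf1 -0.30 to 0.70, Lmo2 -0.27 to 0.92, Gfi1b -0.16 to 0.33 and Runx1 -0.31 to 0.36. In WT Erythroid cells between stages they were Tal1 -0.065 to 0.13, Nfe2 -0.276 to 0.081 and Gfi1b -0.429 to 0.064, and in WT EMP Gata2 -0.53 to 0.77, Tal1 -0.75 to 0.43, Lmo2 -0.41 to 0.53 and Zfpm1 -0.91 to 0.68.

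Genes called also moved with the setting. In E8.5 Erythroid cells 9 became 86 with all stages in 1 fit, 63 to 97 with a library left out of that fit, and 6 to 140 with other alternatives, the most without the filter. Blood progenitors went from 28 to between 3 and 51, E9.5 EMP from 16 to between 8 and 70, WT Erythroid cells from 483 to between 271 and 692, and WT EMP from 54 to between 22 and 249. Requiring over 50 cells gave no value at E7.5. Depth limits Gata2 and Myb in E8.5 Erythroid cells and Gata1 in EMP, where a library held fewer than 100 UMIs of the gene in most cases.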
